A study of Mus musculus with 2 samples.

Results

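A20, the product of Tnfaip3, and its partners restrain NF-kB signalling by editing the ubiquitin chains that receptor complexes use as scaffolds. The data concern 10 genes grouped as brakes on NF-kB signalling, not all of which edit ubiquitin chains. These are Tnfaip3, Tnip1, Tnip2, Cyld, Otulin, Itch, Rnf11, Traf3, Bcl3 and N4bp1. They were listed by name, with earlier results of these data known, so counts over them describe this list only. They are 10 of the 39017 gene identifiers in the deposited table, and each of the 10 had a row of its own and passed the filter of at least 20 counts summed over the libraries, as did 13880 genes in all. RNA was sequenced from Lin- Sca-1+ c-Kit+ (LSK) cells of bone marrow, a fraction rich in blood stem cells and early multipotent progenitors. The miR-146a-/- LSK library came from a pool of 6 mice that lack the microRNA miR-146a, and the WT LSK library from a pool of 12 wild-type mice. All mice were on the C57BL/6J background and 10 to 14 weeks old, and no other allele or treatment is named in the labels. The labels give neither the sex of the mice nor how the miR-146a-/- line was made.

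When Toll-like, IL-1 or TNF receptors are engaged, ubiquitin ligases build chains linked through lysine 63 or through the first methionine (linear chains) on adaptors, and these chains gather the kinases that free NF-kB from its IkB inhibitors. Deubiquitinases such as A20, CYLD and OTULIN cut or cap the chains, and ligases such as ITCH and RNF11 work with A20. Several of the brakes, A20 first among them, are themselves induced by NF-kB, which closes a negative feedback loop. The microRNA miR-146a is another NF-kB-induced brake, which represses the adaptors TRAF6 and IRAK1.

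With 1 library per genotype there is no replicate to check a difference against and no p-value, and every statement compares these libraries. Total counts were 22231389 in the miR-146a-/- library and 35069136 in the WT library, of which protein-coding genes held 51.5% and 81.35%. The ribosomal repeat feature Gm42418 took 27.19% of miR-146a-/- counts and 2.131% of WT counts, and was named after its values were seen. Levels are given as normalised CPM, counts divided by an effective library size from TMM, a scaling that trims genes with extreme ratios. The genotype labels could not be checked on the deleted gene, because Mir146 (chromosome 11, 43374397 to 43374461, minus strand, mm10) had 0 counts in miR-146a-/- and in WT. All positions below are in mm10 (GRCm38), from GENCODE M21 unless RefSeq is named. Xist stood at 2936 normalised CPM in miR-146a-/- and 235.7 in WT, and 4 Y-linked genes (Ddx3y, Kdm5d, Uty and Eif2s3y) at 2.99 to 6.697 in miR-146a-/- and 18.21 to 33.83 in WT, so the pools differed in sex-linked transcripts, and sex and genotype cannot be told apart here. These 5 genes were named after their values were seen.

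Tnfaip3 and Tnip1 were higher in the miR-146a-/- library, and the other 8 brakes lay within 1.5-fold of WT. Tnfaip3 was 5.98-fold higher and Tnip1, which encodes the A20-binding protein ABIN-1, was 1.65-fold higher. To be called, a gene needed the 95% interval of its ratio (exact Clopper-Pearson, counting error alone) to lie entirely outside 1.5-fold. By that rule 2 of the 10 brakes were higher and 0 lower, where 5.35% of all measured genes were higher and 1.53% lower, or 6.87% in either direction. The log2 ratio was above 0 for 7 of the 10, among which Itch and Rnf11 had intervals that included 0. It was above 0 for 48.8% of all measured genes. The median log2 ratio of the 10 was 0.13, against -0.01 over all measured genes. Once adjusted for length and GC content it was 0.04, against -0.03 over all measured genes. Scaling by total counts would call 140 measured genes higher and 7077 lower in place of 742 and 212, and scaling by protein-coding totals 496 and 574. With total counts the log2 ratio of each brake other than Tnfaip3 was below 0, and Cyld, Otulin, Itch, Rnf11 and Traf3 were called lower. In a bulk library, fewer cells of a type and less RNA per cell cannot be told apart.

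**Figure D1:**
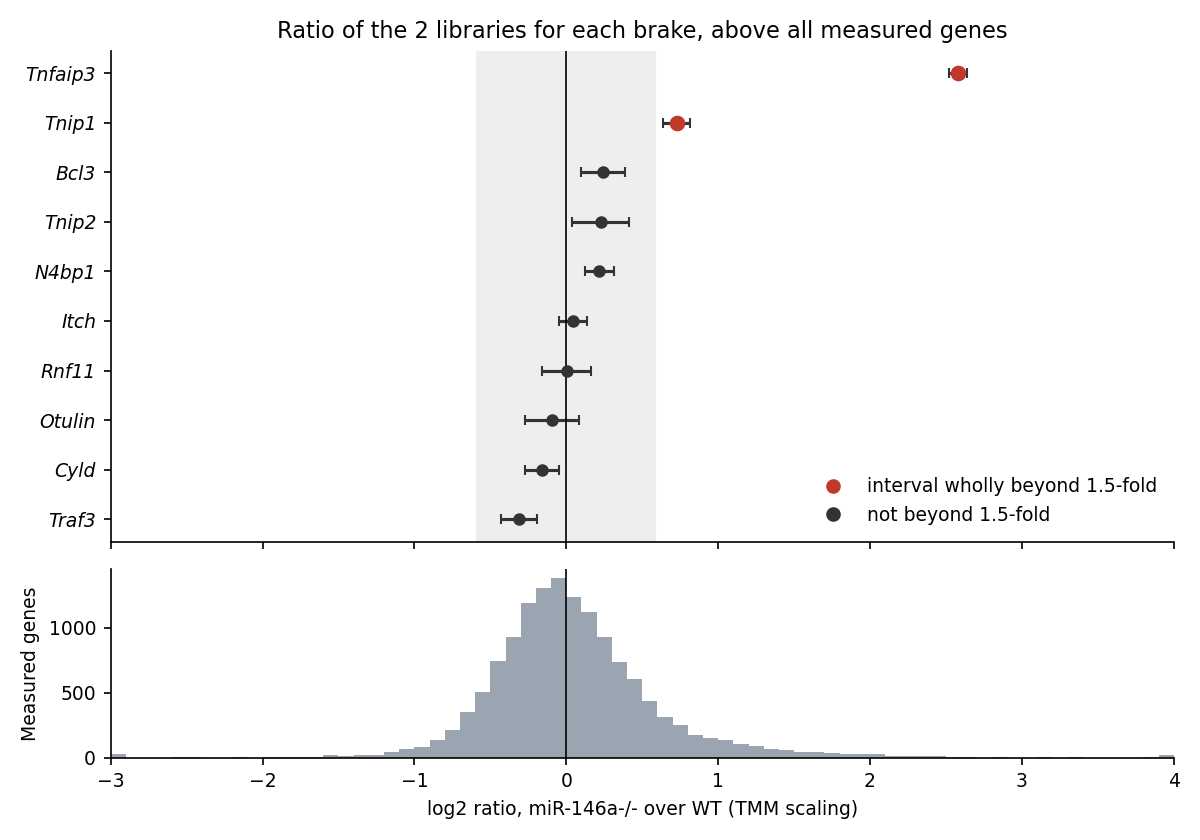
The upper panel plots each brake by its log2 ratio (miR-146a-/- over WT, TMM scaling), with bars for the 95% counting interval and a grey band for 1.5-fold in either direction; the lower panel counts all 13880 measured genes on the same axis, with values beyond the axis gathered in the end bins. Tnfaip3 at 2.58 and Tnip1 at 0.73 lie beyond the band, while the points of the other 8 brakes lie between -0.31 and 0.24.

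Tnfaip3, on chromosome 10 from 19000910 to 19015657 on the minus strand, had 7701 counts in miR-146a-/- and 3590 in WT. That is 460.5 normalised CPM in miR-146a-/- and 77.01 in WT, although the miR-146a-/- library held fewer counts in all. The log2 ratio was 2.58 (95% counting interval 2.52 to 2.64), the 55th highest of the 13880 measured genes. Of the 10 brakes it had the highest ratio, and its interval did not touch that of any other.

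The quotient of 2 genes within a library does not depend on scaling between libraries. Tnfaip3 held 51.1% of the counts of the 10 brakes in miR-146a-/- (Clopper-Pearson 95% interval 50.3 to 51.9%) and 16.1% in WT (15.7 to 16.6%). Against Itch, a ligase of the A20 complex, it had 5.98 counts per Itch count in miR-146a-/- and 1.03 in WT. Against Tnip1 the quotient was 4.86 in miR-146a-/- (4.60 to 5.13) and 1.34 in WT (1.28 to 1.41). In each of the 9 pairings with another brake, the counting intervals of the quotient in miR-146a-/- and WT lay apart, with the miR-146a-/- quotient higher.

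The stretch upstream of the Tnfaip3 start is shown because it holds matches to the kappa-B consensus, the sequence that NF-kB dimers bind. It covers chr10:19015411-19015547 on the minus strand of GRCm38.p6. It ends at the base before the start that RefSeq lists, and begins where an exon of another annotated Tnfaip3 transcript ends. Capitals mark the matches.
Tnfaip3: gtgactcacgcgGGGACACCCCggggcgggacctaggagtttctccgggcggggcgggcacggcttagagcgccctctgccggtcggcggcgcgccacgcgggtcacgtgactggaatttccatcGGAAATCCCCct
The matches start at -125 and -12 relative to the transcription start, and the AP-1 motif TGACTCA starts at -136, beside the farther match and not overlapping it. A second annotated start of Tnfaip3 had no match to either motif within 250 bases upstream.

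Tnip1, on chromosome 11 from 54910785 to 54962917, encodes ABIN-1, which binds A20 and linear ubiquitin chains. It had 1586 counts in miR-146a-/- and 2672 in WT, or 94.83 normalised CPM in miR-146a-/- and 57.32 in WT. The log2 ratio was 0.73 (0.64 to 0.82), so the lower end of the interval was close to the 1.5-fold limit. The call ended under 3 of the scalings or filters tried: the interval was 0.47 to 0.65 with protein-coding totals, 0.57 to 0.75 with no count filter, and -0.19 to -0.0047 with total counts, where the log2 ratio was -0.095. A 2-fold limit in place of 1.5-fold ended it too. The median of all measured genes moved too, to -0.17 with protein-coding totals and to -0.83 with total counts. Relative to that median the log2 ratio of Tnip1 was 0.74 with TMM, with protein-coding totals and with total counts. A change of library size shifts all ratios by nearly the same amount, so this value could hardly move and does not check the call. The gene lies on the chromosome of Mir146, 11.5 Mb from it.

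Tnip2, on chromosome 5 from 34496087 to 34513991, encodes ABIN-2, which also binds A20 and stabilises the kinase TPL2. It had 327 counts in miR-146a-/- and 779 in WT, a log2 ratio of 0.23 (0.04 to 0.41). The counting intervals of Tnip1 and Tnip2 did not overlap. Within a library, there were 4.85 Tnip1 counts per Tnip2 count in miR-146a-/- (4.30 to 5.48) and 3.43 in WT (3.17 to 3.72), a difference that rests on no scaling between libraries.

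The stretch before the Tnip1 start, chr11:54962941-54963100 on the minus strand, is set beside those of Cyld, chr8:88696868-88697027, and Traf3, chr12:111166210-111166369, both on the plus strand. Each holds a kappa-B match, in capitals, while only Tnip1 of these 3 was called higher.
Tnip1: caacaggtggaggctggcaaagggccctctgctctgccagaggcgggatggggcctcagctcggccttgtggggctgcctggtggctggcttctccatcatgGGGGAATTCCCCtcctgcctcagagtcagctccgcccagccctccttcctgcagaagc
Cyld: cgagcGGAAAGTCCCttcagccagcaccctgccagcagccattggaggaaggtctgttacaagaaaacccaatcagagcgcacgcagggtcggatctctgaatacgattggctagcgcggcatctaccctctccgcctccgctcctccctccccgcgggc
Traf3: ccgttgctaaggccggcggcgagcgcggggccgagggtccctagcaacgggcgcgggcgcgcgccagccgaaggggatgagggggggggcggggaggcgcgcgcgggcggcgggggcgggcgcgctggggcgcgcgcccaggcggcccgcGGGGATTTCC
In Tnip1 the capitals hold 3 overlapping matches, starting at -58, -57 and -56. The match of Cyld starts at -155 and that of Traf3 at -10.

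Promoter windows were listed for 8 of the 10 brakes, all but Itch and Rnf11. In the 250 bases before an annotated start, searched on both strands, 4 of the 8 had a kappa-B match and 1 had TGACTCA. Counted the same way, by gene with any listed window, 10.5% of 9735 measured protein-coding genes had a kappa-B match and 3.81% had TGACTCA. By window, the shares were 8.79% and 3.07% of 12472. The shares were not matched for GC content, which ran from 46.4 to 85.2% over the 250-base windows of the brakes. Its part in these figures was not tested. Of 1025 measured protein-coding genes with a kappa-B match in a listed window, 6.34% were called higher, and of 8710 without one 3.81% were. A match describes letters only, and no binding was measured here.

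**Figure D2:**
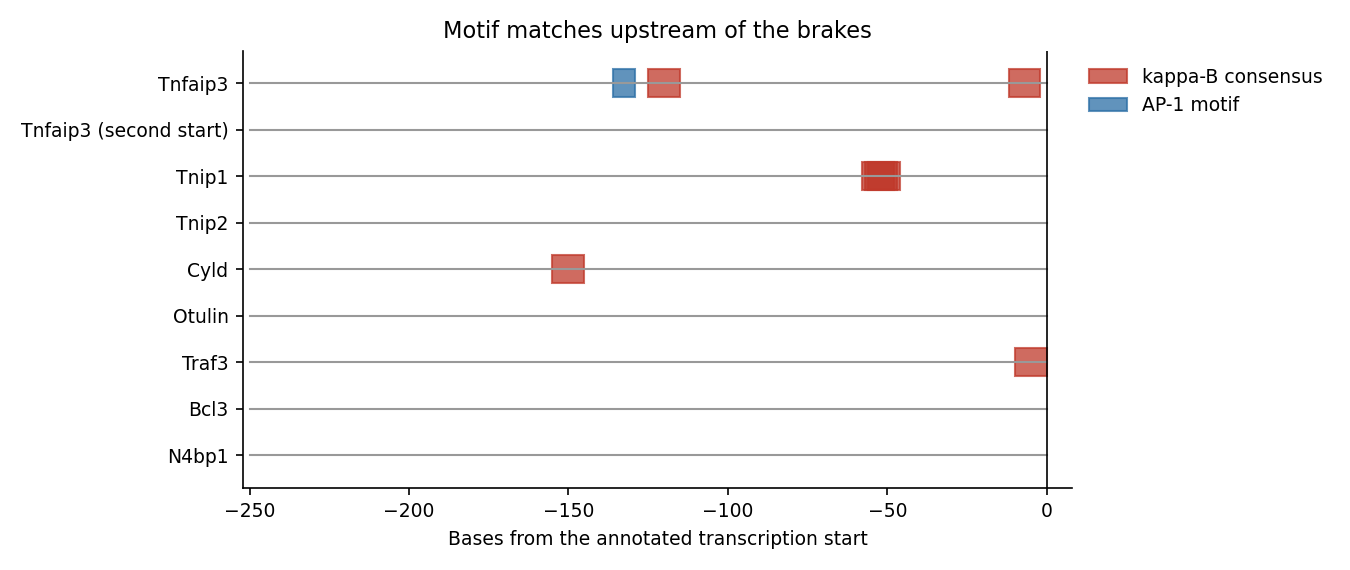
Each line is the 250 bases before an annotated transcription start, plotted as bases from the start, with boxes for matches to the kappa-B consensus and to the AP-1 motif TGACTCA. Tnfaip3 has kappa-B matches starting at -125 and -12, Tnip1 overlapping ones from -58, Cyld one at -155 and Traf3 one at -10, while Tnip2, Otulin, Bcl3 and N4bp1 have none.

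The other deubiquitinases among the brakes, Cyld and Otulin, were not called in either direction. Cyld, on chromosome 8 from 88697028 to 88751945, cuts lysine 63 and linear chains and is lost in familial skin tumours in humans. It had 873 counts in miR-146a-/- and 2716 in WT, a log2 ratio of -0.16 (-0.27 to -0.05), and -0.30 (-0.41 to -0.19) once adjusted for length and GC content. Otulin, on chromosome 15 from 27542635 to 27630693, cuts linear chains only. It had 348 counts in miR-146a-/- and 1033 in WT, a log2 ratio of -0.09 (-0.27 to 0.09). The interval excluded 0 for Cyld, on the lower side, and not for Otulin. Intervals excluded 0 on the higher side for 28.0% of measured genes and on the lower side for 29.0%, so this alone was common.

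Itch and Rnf11, which encode proteins of the A20 complex, were not called. Itch, on chromosome 2 from 155133509 to 155226855, encodes a ligase of the NEDD4 family. It stood at 76.95 normalised CPM in miR-146a-/- and 74.63 in WT, a log2 ratio of 0.04 (-0.05 to 0.14). Rnf11, on chromosome 4 from 109451098 to 109484728, encodes a RING protein of the A20 complex. It stood at 25.53 normalised CPM in miR-146a-/- and 25.51 in WT, a log2 ratio of 0.0015 (-0.16 to 0.16). For both genes the interval lay inside 1.5-fold under TMM scaling, counting error alone considered.

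Traf3, on chromosome 12 from 111166370 to 111267153, had the lowest ratio of the 10. Its product directs degradation of NIK, the kinase that starts the alternative NF-kB pathway. It had 754 counts in miR-146a-/- and 2607 in WT, a log2 ratio of -0.31 (-0.43 to -0.19). The interval excluded 0 but stayed within 1.5-fold.

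Bcl3 and N4bp1 had intervals above 0 that did not pass the 1.5-fold limit. Bcl3, on chromosome 7 from 19808462 to 19822770, encodes a nuclear IkB-like protein that holds p50 dimers on DNA and slows their degradation. It had 539 counts in miR-146a-/- and 1270 in WT, a log2 ratio of 0.24 (0.09 to 0.39). N4bp1, on chromosome 8 from 86808160 to 86885258, encodes an RNA-cleaving suppressor of NF-kB signalling that caspase-8 inactivates. It had 1216 counts in miR-146a-/- and 2914 in WT, a log2 ratio of 0.22 (0.12 to 0.32), and 0.05 (-0.04 to 0.15) with the same adjustment. Across measured protein-coding genes the median log2 ratio ran from -0.17 in the shortest 10% by exon length to 0.17 in the longest 10%, which include Cyld and N4bp1. Of the genes that overlap the 10, only Gm16175, antisense to Bcl3, shared exon bases with one, and it had 0 counts in both libraries.

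Levels per length put the brakes in order, where length counts the exon bases of all annotated transcripts of a gene together. This length was 12576 bases for Cyld and 1693 for Otulin, so the order rests on annotation as well as on counts. In the miR-146a-/- library Tnfaip3 was the most abundant, at 63.7 normalised CPM per kb of exon (counting interval 62.3 to 65.2). In the WT library Tnip1, Otulin and Bcl3 stood above it, and it was at 10.7 (10.3 to 11.0), and did not differ beyond counting error from Bcl3 at 11.0. Tnip1 followed Tnfaip3 in miR-146a-/- at 26.8 and led the order in WT at 16.2. Cyld was lowest in both, at 4.15 in miR-146a-/- and 4.63 in WT. Without division by length Cyld stood at 52.20 normalised CPM in miR-146a-/- and 58.26 in WT, above Tnip2, Otulin, Rnf11 and Bcl3 in both.

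In the miR-146a-/- library the counting intervals overlapped between Bcl3 (13.02) and Otulin (12.3), and between each pair of neighbours in the run Itch (7.93), Tnip2 (7.28), Traf3 (6.13), Rnf11 (5.99) and N4bp1 (5.97), all in normalised CPM per kb. In WT they overlapped between Bcl3 and Tnfaip3, between Itch (7.69) and Traf3 (7.61), and between Tnip2 (6.22) and Rnf11 (5.98). The summed level of the 10 was 900.4 normalised CPM in miR-146a-/- and 477.3 in WT.

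**Figure D3:**
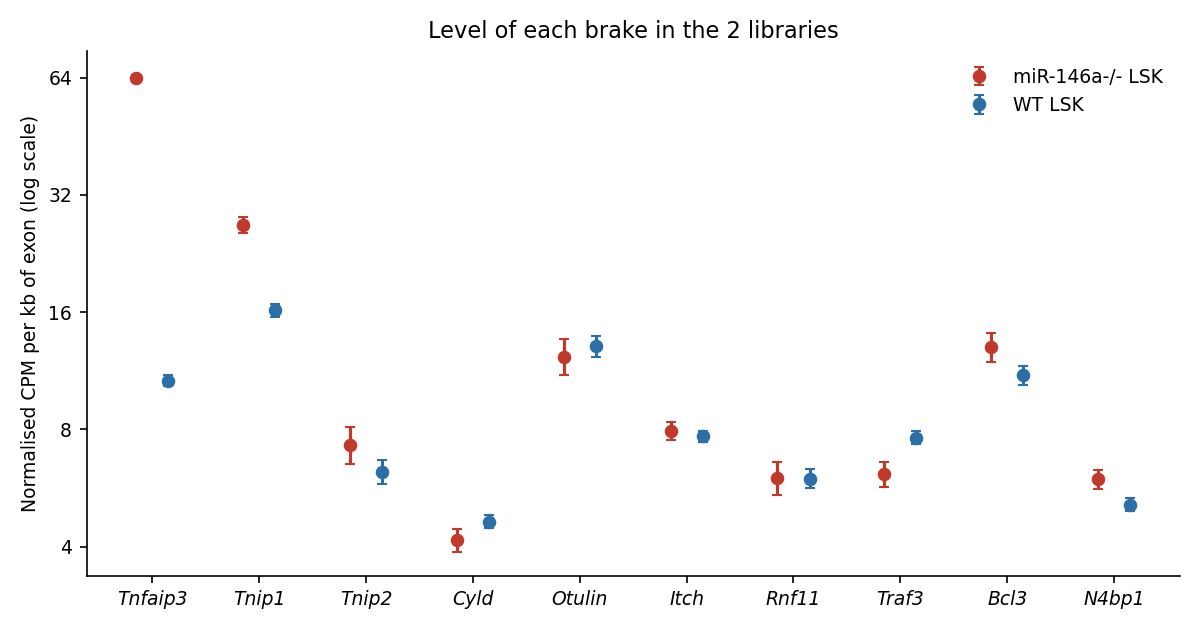
Level of each brake in normalised CPM per kb of exon (log axis), in the miR-146a-/- LSK library (red, left of each pair) and the WT LSK library (blue), 1 library each, with bars for the 95% Poisson counting interval. Tnfaip3 is at 63.7 in miR-146a-/- and 10.7 in WT, while Itch is at 7.93 and 7.69 and Rnf11 at 5.99 and 5.98.

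The brakes were also searched for sites of the missing microRNA. The mature sequences are printed because miR-146b, made from chromosome 19 and not named as deleted in the labels, shares the seed, bases 2 to 8, in capitals (RefSeq, GRCm38.p6, chr11:43374435-43374456 on the minus strand and chr19:46342790-46342811 on the plus strand).
mmu-miR-146a-5p: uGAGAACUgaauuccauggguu
mmu-miR-146b-5p: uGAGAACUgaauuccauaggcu
In the longest 3' untranslated region annotated in GENCODE M21, 4 of the 10 brakes held a 7-base match to this seed. A match is either AGTTCTC, pairing bases 2 to 8, or GTTCTCA, pairing bases 2 to 7 followed by an A. The 4 are shown with the match in capitals.
N4bp1: aaaggcccagccctgAGTTCTCtttgtgtt
Cyld: tttcagcatattttgGTTCTCAttctcatt
Itch: ctagctgctcatcctGTTCTCAtcctggga
Rnf11: agacttttttcccagGTTCTCAaaatttgt
These windows lie at chr8:86841367-86841396 on the minus strand, chr8:88751390-88751419 and chr2:155225815-155225844 on the plus strand, and chr4:109452433-109452462 on the minus strand.

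None of the 4 brakes with a match was called higher or lower, and their log2 ratios ran from -0.16 for Cyld to 0.22 for N4bp1. Over all measured genes 6.87% were called in either direction, so the absence of a call among 4 genes says little about them. Tnfaip3 and Tnip1, the 2 that were called, had neither 7-base match and no match to the 6 bases GTTCTC. Among 12249 measured protein-coding genes with an annotated 3' untranslated region, 20.5% held either 7-base match. Their median log2 ratio was 0.01, against -0.05 for those without one. Neither the shares nor the medians were matched for length. From the shortest to the longest protein-coding genes by exon length the median ran from -0.17 to 0.17. The untranslated regions of the 4 brakes with a match were 2389 to 4932 bases long, and those of the other 6 were 348 to 5093. The part of length in these figures was not tested.

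Other genes of the same pathway were taken from lists chosen with earlier results of these data known. The A20 partners and the linear ubiquitin ligase complex LUBAC had 9 measured members, of which 0 were called in either direction, with a median log2 ratio of 0.17. The most abundant in counts, Tax1bp1, an adaptor that brings A20 to its substrates, was at 0.17 (0.11 to 0.24). Of 13 other deubiquitinases with reported roles in NF-kB signalling, 0 were called and the median was -0.06. Usp7 had the most counts there and was at -0.06 (-0.12 to 0.01).

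The ubiquitin ligases and E2 enzymes had a median of 0.25, and of 14 measured members 2 were higher and 0 lower. The higher ones were Birc3, which encodes the ligase cIAP2, and Traf1, an adaptor that binds it, each an NF-kB-induced gene. Birc3 had 963 counts in miR-146a-/- and 1547 in WT, a log2 ratio of 0.79 (0.68 to 0.91). Traf1 had 178 counts in miR-146a-/- and 253 in WT, a log2 ratio of 0.97 (0.69 to 1.25). Ube2d3, the member with the most counts, was at 0.09 (0.03 to 0.15).

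The kinases and scaffolds on which the brakes act had 0 of 12 called and a median of 0.20. Tab2, a ubiquitin-binding subunit of the TAK1 kinase complex, had the most counts and was at 0.26 (0.20 to 0.32). The NEDD4 ligase family with the ITCH adaptors had 0 of 8 called and a median of 0.06, with Nedd4 itself at 0.10 (0.07 to 0.13). Of the 5 relatives of N4BP1 that share its NYN nuclease domain, 1 was higher. This was Zc3h12a, which encodes the NF-kB-induced RNase Regnase-1, with 2981 counts in miR-146a-/- and 2750 in WT and a log2 ratio of 1.60 (1.52 to 1.67).

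The list of IkB proteins, NF-kB subunits and nuclear regulators held 6 genes called higher and 0 lower among its 12. The median log2 ratio was 0.71 with TMM and -0.11 with total counts, where the median of all genes was -0.83. Nfkbia, the classical IkB, had 5983 counts in miR-146a-/- and 4142 in WT, a log2 ratio of 2.01 (1.95 to 2.07). The nuclear IkB proteins Nfkbiz and Nfkbid were at 1.94 (1.89 to 1.99) and 1.80 (1.73 to 1.87). The subunit gene Rel was at 1.29 (1.18 to 1.40). Set against Nfkbia within each library, Tnfaip3 had 1.29 counts per Nfkbia count in miR-146a-/- (1.24 to 1.33) and 0.867 in WT (0.829 to 0.907), so its ratio exceeded that of Nfkbia beyond counting error.

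**Figure D4:**
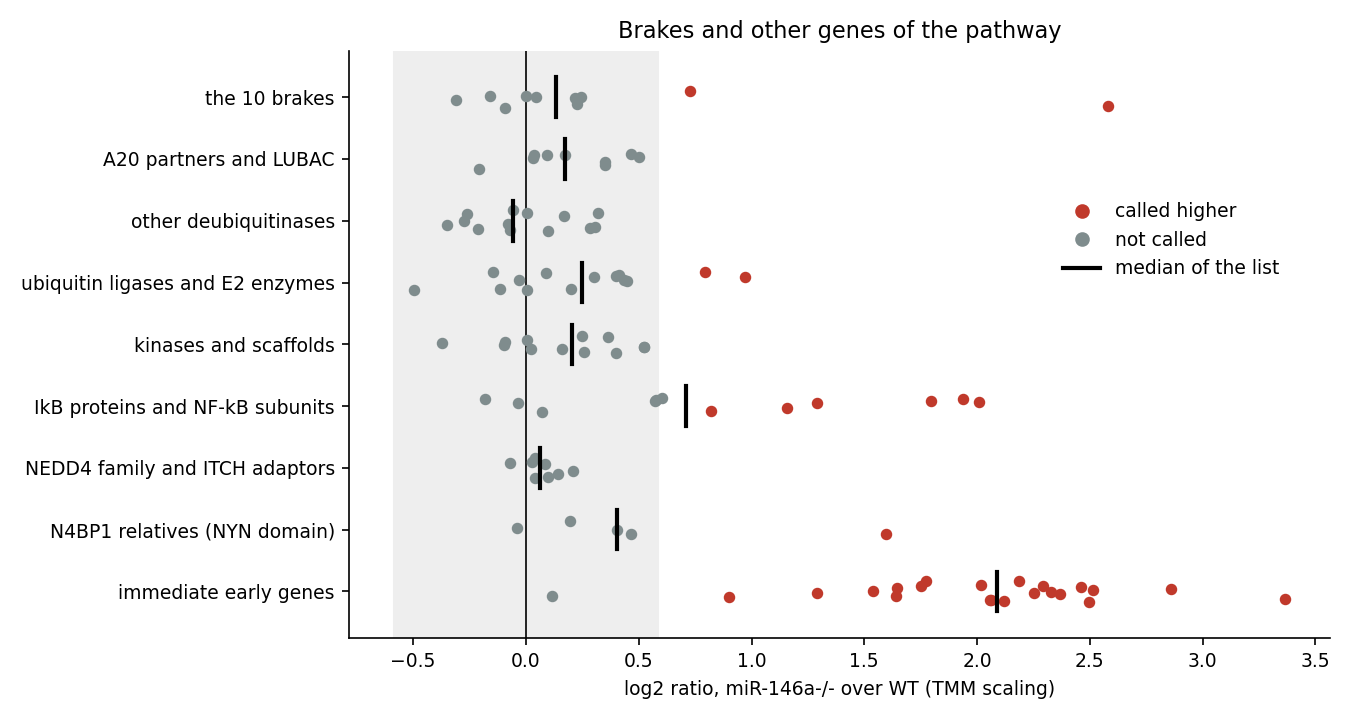
Each point is a measured gene, placed by its log2 ratio (miR-146a-/- over WT, TMM scaling), with red for genes called higher, a black bar for the median of the list and a grey band for 1.5-fold. Medians run from -0.06 for the other deubiquitinases to 0.71 for IkB proteins and NF-kB subunits and 2.09 for immediate early genes, against 0.13 for the 10 brakes. With total counts the medians of all lists plotted are below 0 other than that of the immediate early genes.

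Immediate early genes, which respond to signalling and also to tissue handling, were higher in miR-146a-/- as well. Of 22 measured, 21 were higher and 0 lower, with a median log2 ratio of 2.09 and a summed level of 22011 normalised CPM in miR-146a-/- and 5641 in WT. Egr2 (3.37), Egr3 (2.86), Klf4 (2.52) and Egr1 (2.498) had the interval bounds farthest from 0, and Zfp36, which had the most counts, was at 2.33. The median was 1.27 with total counts. Their part in the ratios of Tnfaip3 and Tnip1 was not tested.

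The LSK identity of the cells was read from marker genes. Kit, Ly6a (Sca-1) and Ptprc were present in both libraries, at 727.5, 74.62 and 247.8 normalised CPM in miR-146a-/- and 557.8, 66.78 and 228.4 in WT. Of the antigens that define gated-out lineages, Cd3e and Cd8a had 0 counts in both libraries, which allows up to 3 counts in each, and Ly6g had 1 count in each. Cd4 and Itgam were measured, at 4.07 and 56.8 normalised CPM in miR-146a-/- and 1.84 and 35.9 in WT. Of these 2, Cd4 was called higher and 0 were lower, and the interval of Itgam, 0.55 to 0.78, lay above 0.

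Neutrophil markers summed to 7.59 normalised CPM in miR-146a-/- and 15.7 in WT, with 3 of 8 measured members lower and 0 higher. Monocyte and macrophage markers summed to 111.2 in miR-146a-/- and 97.11 in WT, with 2 of 7 higher and 0 lower. Lyz2 was the largest part of that sum, at 51.42 in miR-146a-/- and 62.92 in WT. The log2 ratio was above 0 for 5 of the 7 and below 0 for 2, with a median of 0.72. T and NK cell markers summed to 37.73 in miR-146a-/- and 36.70 in WT, with 2 of 4 measured members higher and Cd3d, Cd3e and Cd3g at 0 counts in both libraries. Nkg7 was most of that sum, at 31.69 in miR-146a-/- and 34.36 in WT. Of the 4 measured, 3 had a log2 ratio above 0 and 1 below, with a median of 1.22. Lyz2 and Nkg7 were named after their values were seen. B and plasma cell markers summed to 55.55 in miR-146a-/- and 53.18 in WT (1 of 4 lower), and dendritic cell markers, mostly Flt3, which LSK cells express, to 451.7 in miR-146a-/- and 515.8 in WT (0 of 3 measured called). Erythroid markers summed to 2.27 in miR-146a-/- and 2.38 in WT (0 of 3 measured called). The part of these cells in the ratios of the brakes was not tested.

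**Figure D5:**
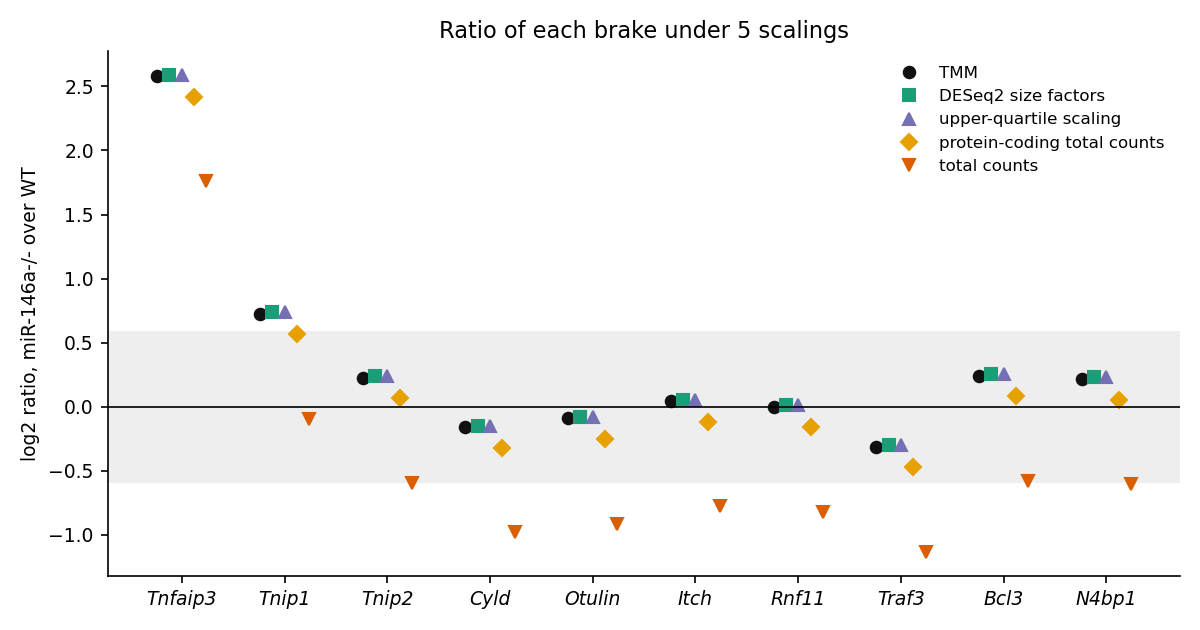
Log2 ratio of each brake (miR-146a-/- over WT) under TMM and 4 other scalings of library size, 1 marker per scaling, with a grey band for 1.5-fold. Tnfaip3 stays above the band under each, at 1.76 to 2.59, whereas Tnip1 lies above it with TMM, DESeq2 size factors and upper-quartile scaling, at 0.56 with protein-coding totals and at -0.095 with total counts.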

How the data were processed

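RNA depleted of ribosomal RNA was sequenced from 1 pooled LSK library per genotype. The authors deposited raw counts per Ensembl gene. Per the file headers, junction alignments were placed on the genome and duplicates flagged. STAR 2.5.3a, Salmon 0.9.0 and mm10 are named in the submitters' processing notes. The counting program, the strand setting and the annotation: not given in the sources used here. Flagged duplicates may or may not have been counted. Without strand, antisense reads cannot be separated.

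Symbols came from GENCODE M21 for 37693 of 39017 identifiers. Library sizes used TMM in edgeR 4.0.16 (R 4.3.3) over genes with at least 20 summed counts. Log2 ratios used a prior count of 0.5. Intervals were exact Clopper-Pearson at 95% (SciPy 1.17.1) and reflect counting error alone, because each genotype had 1 library. They may be too narrow even for that, since PCR copies cannot be told from separate molecules without identifiers. No test was possible with 1 library per genotype, so none of edgeR's tests was run. The calculation was tested on simulated counts, with counting error alone and equally many known changes in each direction. The simulation did not copy the difference in Gm42418 between the libraries, so it does not check the scaling against that. Alternatives were DESeq2 1.42.0 size factors, other scalings, count filters, a 2-fold limit, a prior count of 5 and adjustment for length and GC content. Members and lists were chosen with earlier results of these data known. Named genes were the 10 brakes and, per pathway list, up to 4 called genes by interval bound and the gene with the most counts. Some marker genes are not reported here.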

Additional observations from a re-analysis of the deposited data

How the results depend on the processing

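No paired analysis was possible because each genotype had 1 library. Tnfaip3 was called higher under all 9 alternatives, from 1.76 (total counts) to 2.62 (at least 200 counts) on the log2 scale, and Tnip1 under 5 of 9. Brakes called higher were 1 in place of 2 with total counts, protein-coding totals, no count filter and a 2-fold limit. Brakes called lower were 5 in place of 0 with total counts (Cyld, Otulin, Itch, Rnf11 and Traf3). The log2 ratio of Tnip1 was -0.0949 with total counts. The median over the 10 brakes was -0.69 with total counts and -0.0307 with protein-coding totals. Total counts gave 140 measured genes higher and 7077 lower. The 2-fold limit gave 294 higher and 42 lower. The filter of 200 counts gave 491 higher and 130 lower among the 10730 genes that it left. Lower ones were 574 with protein-coding totals and 322 with no filter. The 2-fold limit is stricter by construction and the shift by total counts moved the median of all genes to -0.83. Protein-coding totals and no filter changed the library sizes too, and that median was -0.17 and -0.06 with them. Causes beyond these were not tested. The lowest depth among the brakes, 327 counts of Tnip2 in miR-146a-/-, gave a log2 interval from 0.04 to 0.41. Of 72 medians of pathway lists under these alternatives, 15 moved, 8 of them with total counts and 6 with protein-coding totals.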
